A study of Homo sapiens with 12 samples.

Results

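Histone genes fall into a pair of broad classes, and 9 of them from the human leukemia line MOLM-14 are described here. The first class is represented by H2AC6, H2BC12 and H2BC21, replication-dependent core histone genes, and the second by the linker histone gene H1-10 and by H2AX, H2AZ1, H2AZ2, H3-3A and H3-3B, genes for replacement variants. They were selected on their detection in these libraries, matched by symbol, and all 9 were found among the 61906 genes of each count table. All 9 passed the expression filter in both experiments. Their knockdown values were known when they were listed, so those values are given as a description, without a test. The rule for listing them names no contrast between RX-5902 and DMSO, so that comparison is tested. Earlier results of both experiments were known when the list was made, and whether they bore on the choice is not known, so the p-values of the drug comparison may not be independent of it.

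RNA was sequenced from 12 libraries of MOLM-14, an acute myeloid leukemia line with a rearranged KMT2A gene and a FLT3 internal tandem duplication. In one experiment, cells received by lentivirus either an shRNA against the RNA helicase gene DDX5 (shDDX5, 3 libraries) or a control shRNA (shControl, 3 libraries) and were harvested at 96 hours. In the other, cells were given 100 nM of RX-5902 (3 libraries), a compound reported to bind phosphorylated DDX5, or 0.1% DMSO (3 libraries), for 6 hours. All groups are of 1 cell line, and the labels name neither the shRNA sequence nor a second hairpin.

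Replication-dependent histone genes supply histones while DNA is copied. Most of their mRNAs end in a stem-loop bound by the protein SLBP instead of a poly(A) tail, and several of these genes can also make longer, polyadenylated mRNAs, a form known from differentiated and non-dividing cells. Most replacement variants are made throughout the cell cycle from polyadenylated mRNAs, although annotated transcripts of H2AX also hold a stem-loop. H2A.Z marks promoters and enhancers, H3.3 is placed in active chromatin and at telomeres outside replication, H2A.X is phosphorylated around DNA breaks, and H1.10 binds linker DNA. Whether the libraries were made from poly(A) RNA or by removal of ribosomal RNA is not given in the sources used here, so the levels of genes with mostly stem-loop mRNAs cannot be set against those of polyadenylated mRNAs as if both were captured alike.

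H2AC6 and H2BC21 carry both kinds of 3′ end, as does H2AX, and the sites are shown because they set apart the members whose annotated transcripts hold a stem-loop. The sequences below run 5′ to 3′ as DNA letters on the strand of the mRNA and come from GENCODE release 29 transcripts. Capitals mark the stem-loop, a perfect 6-base stem around a 4-base loop.
H2AC6: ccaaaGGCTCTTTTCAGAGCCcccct
H2BC21: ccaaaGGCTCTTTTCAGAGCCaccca
H2AX: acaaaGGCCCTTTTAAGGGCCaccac
The stem-loop started at base 525 of the 1668-base H2AC6 transcript, which has 2 exons and is annotated for nonsense-mediated decay, and 1128 bases followed it. It started at base 450 of the 2194-base H2BC21 transcript, with 1729 bases after it, and at base 555 of the 1614-base H2AX transcript, with 1044 bases after it. Each of the 3 transcripts held a poly(A) signal near its end, AATAAA in H2AC6 and H2BC21 and ATTAAA in H2AX, after which 23, 18 and 39 bases remained in that order. A stem-loop of this form was found in 29 of the 66 listed replication-dependent histone genes with a transcript in the release, and in 22 of these more than 100 bases followed it. H2AX was the 1 of 12 listed replacement variants with a match, while 114 of 19684 protein-coding genes had one (0.579%). The transcript of H2BC12 in that release, of 381 bases, showed no match. Other short records, such as those of H2BC3 (381 bases), H3C1 (411 bases) and H4C1 (312 bases), showed none either. A missing match says only that these letters are not in that record, so 29 of 66 is not the share of genes with a stem-loop.

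**Figure D1:**
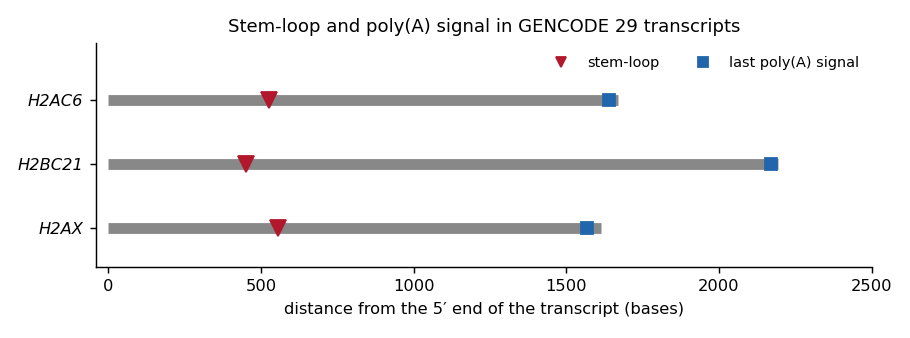
Position of the stem-loop (triangles) and of the last poly(A) signal (squares) along the GENCODE 29 transcripts of H2AC6, H2BC21 and H2AX, in bases from the 5′ end. The stem-loop lies at bases 525, 450 and 555, and the signal within the last bases of each grey bar.

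The promoters of the 3 replication-dependent members and of H2AZ1 are shown because these genes had the largest differences between groups in one or both experiments. Each sequence holds the 250 bases before and the 50 bases after the first start listed by RefSeq on GRCh38.p14, on the coding strand. Capitals mark CCAAT (or ATTGG on the other strand), TATAAA (or TTTATA) and the octamer ATGCAAAT (or ATTTGCAT). The promoter of H2AC6 is chr6:26123922-26124221 on the plus strand, and on the minus strand lie those of H2BC12 (chr6:27146809-27147108), H2BC21 (chr1:149886633-149886932) and H2AZ1 (chr4:99950226-99950525).
H2AC6: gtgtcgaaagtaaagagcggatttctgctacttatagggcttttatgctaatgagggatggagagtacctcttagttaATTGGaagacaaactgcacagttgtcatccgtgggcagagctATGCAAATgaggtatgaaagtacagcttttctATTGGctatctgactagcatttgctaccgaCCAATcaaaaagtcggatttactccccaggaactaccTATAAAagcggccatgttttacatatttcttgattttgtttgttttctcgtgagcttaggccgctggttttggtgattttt
H2BC12: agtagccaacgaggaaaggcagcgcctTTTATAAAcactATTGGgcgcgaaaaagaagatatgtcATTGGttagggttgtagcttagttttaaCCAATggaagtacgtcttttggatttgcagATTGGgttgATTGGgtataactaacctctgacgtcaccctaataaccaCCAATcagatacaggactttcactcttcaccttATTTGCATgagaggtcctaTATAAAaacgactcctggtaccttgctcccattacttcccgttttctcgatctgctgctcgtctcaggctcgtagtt
H2BC21: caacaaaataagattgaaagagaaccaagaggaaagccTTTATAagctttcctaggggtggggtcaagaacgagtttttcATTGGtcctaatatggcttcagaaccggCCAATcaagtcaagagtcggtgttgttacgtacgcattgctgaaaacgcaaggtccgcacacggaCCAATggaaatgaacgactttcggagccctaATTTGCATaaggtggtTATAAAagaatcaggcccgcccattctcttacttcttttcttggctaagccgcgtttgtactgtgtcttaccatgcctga
H2AZ1: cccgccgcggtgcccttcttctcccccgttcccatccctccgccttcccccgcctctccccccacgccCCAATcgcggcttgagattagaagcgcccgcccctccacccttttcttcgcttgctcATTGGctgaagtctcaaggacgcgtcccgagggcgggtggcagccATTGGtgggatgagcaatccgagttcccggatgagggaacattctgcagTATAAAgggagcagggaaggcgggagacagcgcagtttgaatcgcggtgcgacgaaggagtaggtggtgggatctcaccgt
TATAAA began at position -31 in H2AC6, -27 in H2BC12, -30 in H2BC21 and -31 in H2AZ1, counted from the listed start. The octamer was present in all 3 replication-dependent members, at -130 in H2AC6 and at -46 in both H2BC12 and H2BC21. Of the 6 replacement members H3-3B alone held an octamer, at -76, and H1-10 alone held no CCAAT. Only the first start listed for each gene was searched, while 4 starts are listed for H3-3A and 2 for H2BC12. In H2BC12 an upstream TTTATA and TATAAA overlapped, at -223 and -221. On either strand, CCAAT was in 35.7% of the 27305 listed promoters, TATAAA in 12.0% and the octamer in 1.8%, against 55, 43 and 26 of the 65 listed promoters of replication-dependent histones in the same order. The matches are a description of the letters and not of factor binding.

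On GRCh38, in the coordinates of the deposited tables, H2AC6 spans chr6:26124145-26139116 (plus strand) in 2 exon blocks, and H2BC12 lies at chr6:27146361-27146855 and H2BC21 at chr1:149884459-149886682, both on the minus strand as a single exon. Each of them starts close to a histone gene read in the other direction, H2AC6 at 219 bases from H2BC4, H2BC12 at 251 bases from H2AC12 and H2BC21 at 236 bases from H2AC20. H1-10 (chr3:129314771-129316286), H2AX (chr11:119093874-119095465) and H2AZ1 (chr4:99948086-99950355) are on the minus strand, as are H2AZ2 (chr7:44826791-44848087) and H3-3B (chr17:75776434-75785893), while H3-3A is on the plus strand at chr1:226061851-226072019. H1-10 shares 345 exon bases with the opposite-strand gene H1-10-AS1, H2AZ1 223 with H2AZ1-DT, H3-3B 179 with UNK and H3-3A 48 with H3-3A-DT. No strand setting is given in the sources used here, so within these shared bases reads of the 4 members cannot be told apart from reads of their partners. Of the 50-base stretches of H2BC12's annotated transcript, 74.1% also occur in transcripts of 11 other genes, so its counts are uncertain. That share was 11.7% for H3-3A, 8.11% for H2BC21, 4.0% for H3-3B and at most 3.0% for the other 5.

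Library totals ran from 17603589 to 20367575 counts. DDX5 stood at 159 to 164 CPM (read counts scaled to a common library size with edgeR's TMM factors) in shDDX5 libraries and 718 to 755 CPM in shControl libraries (log2 fold change -2.19, SE 0.08, edgeR adjusted p = 3.44e-06). In the drug experiment it stood at 1023 to 1108 CPM in RX-5902 libraries and 854 to 868 CPM in DMSO libraries. The library of shDDX5 replicate 1 stood apart from the other two of its group, with a chi-square per gene of 52.5 and 52.7 against them, where all other pairs of replicates lay between 1.76 and 6.62. Mitochondrial genes took 10.3% of its counts, against 7.71 and 8.09% in the other shDDX5 libraries and 6.17 to 7.75% in shControl. The knockdown differences of the histone genes and the counts of the lists of histone factors are therefore also given without that library. Myeloid genes were high in every library, SPI1 at 113 to 191 CPM, FLT3 at 257 to 444 CPM and CEBPA at 197 to 311 CPM, although KIT did not exceed 0.0568 CPM. The defining markers CD3G (T cells), MS4A1 (B cells), HBA1 and HBB (erythroid cells), PF4 (megakaryocytes) and DCN and LUM (fibroblasts) had no count in any library.

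In RX-5902 cells the replication-dependent members were higher than in DMSO cells, H2AC6 by 4.28-fold and H2BC21 by 3.5-fold, while most of the replacement members differed little. Of the 9 members 5 were called higher (H2AC6, H2BC12, H2BC21, H1-10 and H3-3B) and 1 lower (H2AZ1), by edgeR's quasi-likelihood test at an adjusted p under 0.05 (Benjamini-Hochberg, across the whole table). Of all 13941 genes tested, 64.1% were called, 32.2% higher and 31.9% lower, so a call by itself does not set a member apart. Calls of at least 2-fold made up 5.16% of genes higher and 3.57% lower with RX-5902, and H2AC6 and H2BC21 were the members past that size. H2BC21 passed the filter only through the RX-5902 libraries, where it is high, so its place among these counts is no support for them. The same 6 members had groups that did not overlap, as did 34% of all genes with RX-5902 higher and 33.4% with RX-5902 lower. In bulk RNA, a different share of cells in a given phase of the cycle and a different amount of RNA per cell cannot be told apart.

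H2AC6, a gene for canonical H2A, had 6.99, 7.00 and 6.79 CPM in RX-5902 libraries, against 1.47, 1.82 and 1.55 CPM in DMSO libraries. All treated libraries lay well above all vehicle libraries, and the treated ones were close to each other. The log2 fold change was 2.10 (SE 0.14, edgeR adjusted p = 2.02e-14). H2BC21, a gene for canonical H2B on chromosome 1, had 2.07, 1.68 and 1.94 CPM in RX-5902 libraries and 0.354, 0.708 and 0.552 CPM in DMSO libraries. These levels rest on 43, 35 and 40 counts against 7, 14 and 11 counts, and the groups do not overlap. Its log2 fold change was 1.81 (SE 0.26, edgeR adjusted p = 2.87e-07), with the filter passed only through the RX-5902 libraries. H2BC12, a canonical H2B gene in the large cluster on chromosome 6, had 5.69, 4.65 and 6.45 CPM in RX-5902 libraries and 3.39, 4.05 and 3.16 CPM in DMSO libraries. The nearest libraries of the 2 groups lay close together, without overlap. It was 1.58-fold higher (log2 0.66, SE 0.14, edgeR adjusted p = 0.00011).

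Among the replacement members, H1-10 had the largest difference. It had 6.37, 6.71 and 6.31 CPM in RX-5902 libraries and 4.25, 4.25 and 4.56 CPM in DMSO libraries, with a wide gap between the groups, and was 1.48-fold higher (log2 0.57, SE 0.12, edgeR adjusted p = 7.35e-05). H3-3B, one of the pair of genes for H3.3, had 502, 524 and 520.1 CPM in RX-5902 libraries and 446, 462 and 479.9 CPM in DMSO libraries. It was 1.11-fold higher (log2 0.15, SE 0.04, edgeR adjusted p = 0.000675). H2AZ1, the more abundant of the H2A.Z genes, had 389, 410.5 and 389.8 CPM in RX-5902 libraries against 445, 481 and 458 CPM in DMSO libraries. All treated libraries were below all vehicle libraries, by a factor of 1.16 on average (log2 fold change -0.22, SE 0.04, and an edgeR adjusted p of 1.04e-05). In a fit of all 12 libraries the calls of H2AZ1 and H3-3B were lost, at edgeR adjusted p = 0.25 and 0.193.

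H2AX, H2AZ2 and H3-3A were not called. H2AX had 51.4, 60.5 and 59.0 CPM in RX-5902 libraries and 58.3, 53.1 and 48.7 CPM in DMSO libraries, and the groups overlapped (log2 0.09, SE 0.06, edgeR adjusted p = 0.175). Without RX-5902 replicate 1 or DMSO replicate 1 it was called higher, at 0.16 (edgeR adjusted p = 0.0183) and 0.15 (edgeR adjusted p = 0.0379). H2AZ2 averaged 174 ± 0.78 CPM in RX-5902 libraries and 176 ± 4.85 CPM in DMSO libraries (SD, n = 3 each), a log2 difference of -0.01 (SE 0.04, edgeR adjusted p = 0.759). H3-3A averaged 237 ± 4.95 CPM in RX-5902 libraries and 245 ± 13.1 CPM in DMSO libraries, a log2 difference of -0.05 (SE 0.04, edgeR adjusted p = 0.297). Both signs turned when libraries were scaled by their totals alone, so no direction is given for these genes.

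**Figure D2:**
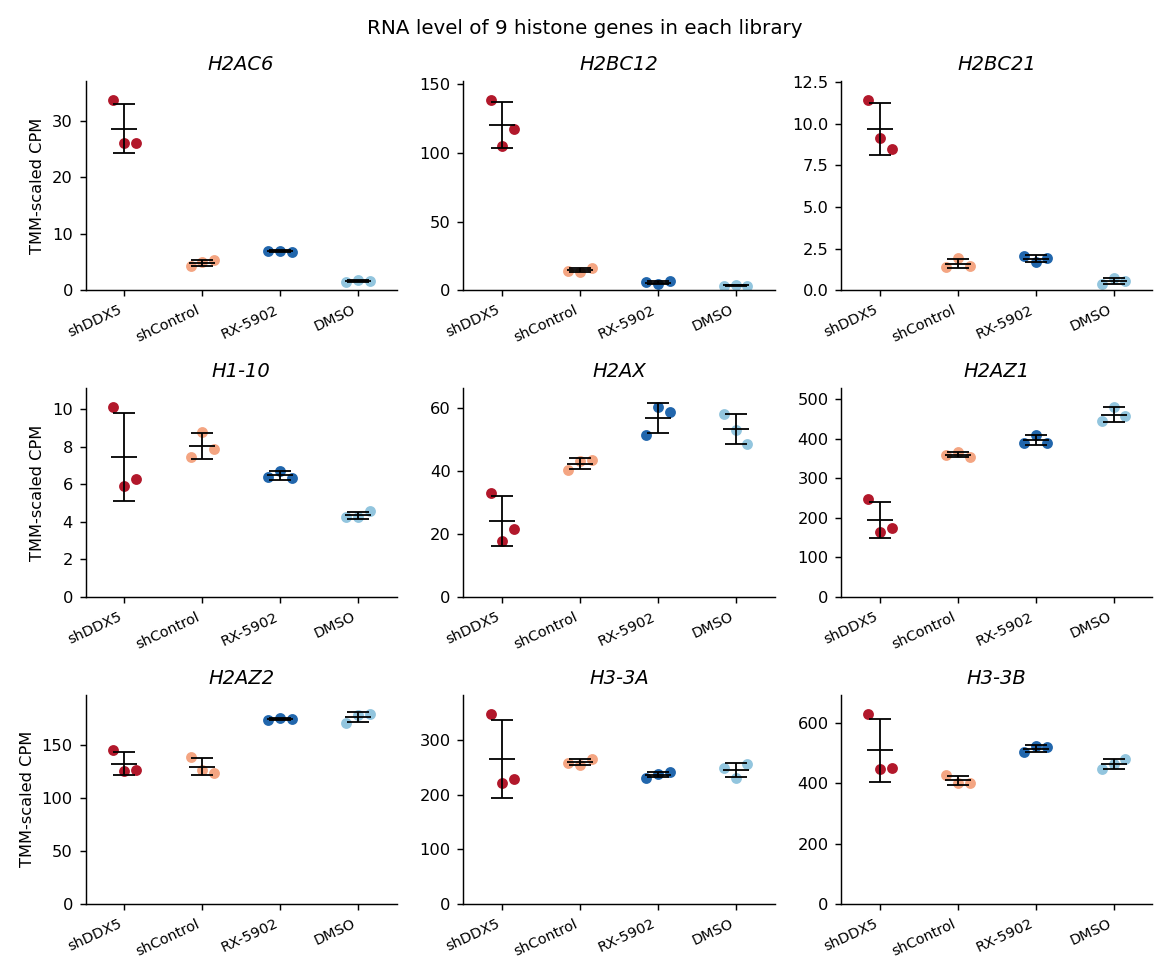
Level of each of the 9 histone genes in TMM-scaled CPM (vertical axes, linear and from 0), with a point for each of the 12 libraries and a bar for the mean ± SD of each group (n = 3). H2BC12 reaches 105 to 138 CPM in shDDX5 libraries and does not exceed 16.03 CPM elsewhere, and the leftmost shDDX5 point, replicate 1, is the highest of its group in every panel.

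The knockdown values of the members, which were known when they were listed, follow with no test. In this comparison 56.7% of 14463 genes were called, 28.4% higher and 28.3% lower, and calls of at least 2-fold made up 10.8% and 10.3%. H2BC12 had 138, 105 and 118 CPM in shDDX5 libraries, against 14.3, 13.6 and 16.03 CPM in shControl libraries, and was 8.22-fold higher (log2 3.04, SE 0.13). Even the lowest shDDX5 library lay far above all shControl libraries, and the log2 difference was 2.93 without shDDX5 replicate 1. H2AC6 had 33.6, 26.03 and 26.05 CPM in shDDX5 libraries and 4.23, 4.93 and 5.38 CPM in shControl libraries (5.89-fold, log2 2.56, SE 0.15, and 2.42 without that library). H2BC21 had 11.4, 9.11 and 8.46 CPM in shDDX5 libraries and 1.39, 1.92 and 1.48 CPM in shControl libraries (6.02-fold, log2 2.59, SE 0.19, and 2.45 without it). In both genes the groups are far apart and replicate 1 is the highest shDDX5 library.

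Of the replacement members, H2AZ1 and H2AX were lower in all shDDX5 libraries than in any shControl library. H2AZ1 had 247, 165 and 173 CPM in shDDX5 libraries and 360, 366 and 355 CPM in shControl libraries (log2 -0.88, SE 0.15, and -1.09 without shDDX5 replicate 1). H2AX had 33.2, 17.7 and 21.6 CPM in shDDX5 libraries and 40.5, 43.2 and 43.5 CPM in shControl libraries (log2 -0.81, SE 0.20, and -1.11 without it). In both genes replicate 1 was the shDDX5 library nearest to shControl. H3-3B had 631, 447 and 449.9 CPM in shDDX5 libraries and 426, 402 and 399.6 CPM in shControl libraries (log2 0.32, SE 0.14). Most of that gap was in replicate 1, and without it the log2 difference was 0.13.

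H1-10, H2AZ2 and H3-3A overlapped between shDDX5 and shControl. H1-10 had 10.1, 5.89 and 6.26 CPM in shDDX5 libraries and 7.42, 8.77 and 7.84 CPM in shControl libraries, with replicate 1 above all controls and the other shDDX5 libraries below them. Its log2 difference was -0.11 (SE 0.21), and -0.40 without replicate 1. H3-3A had 349, 221 and 229.5 CPM in shDDX5 libraries and 259, 255 and 266 CPM in shControl libraries, again with replicate 1 on the other side of the controls. Its log2 difference was 0.03 (SE 0.17), and -0.21 without that library. H2AZ2 had 145, 125 and 126 CPM in shDDX5 libraries and 138, 126 and 123 CPM in shControl libraries (log2 0.04, SE 0.09, and -0.04 without it). Higher and lower groups without overlap were seen for 32.2% and 34% of all genes in this comparison.

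**Figure D3:**
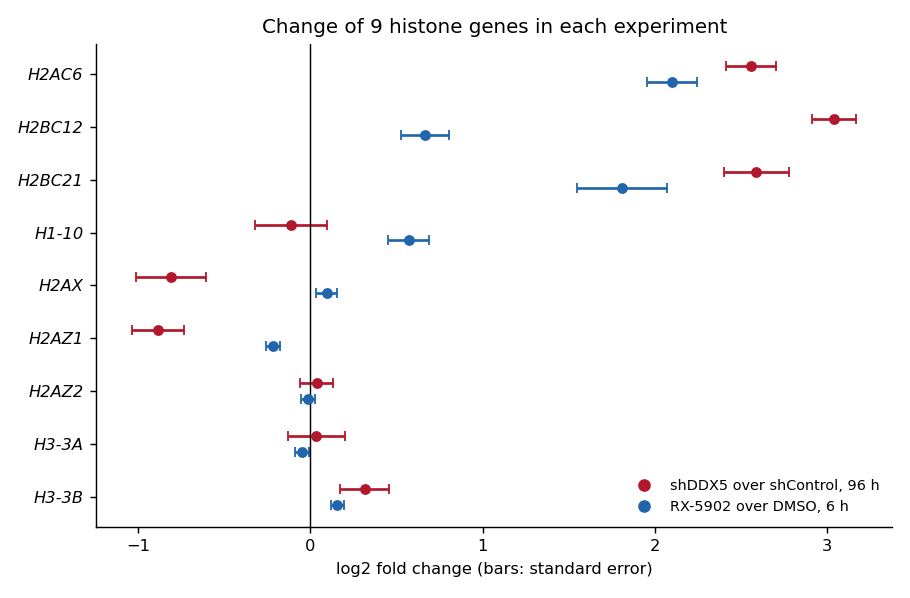
Log2 fold change of each of the 9 histone genes (horizontal axis, points; bars are the standard error) for shDDX5 over shControl (red) and RX-5902 over DMSO (blue). H2AC6 and H2BC21 lie at 2.56 and 2.59 in the knockdown and at 2.10 and 1.81 with RX-5902, H2BC12 at 3.04 and 0.66, and H2AX and H2AZ1 at -0.81 and -0.88 in the knockdown.

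Levels were compared between genes per kilobase of merged exon length. The RNA selection is not given, so the places of replication-dependent genes among replacement variants are uncertain. The place of H2BC12 is also uncertain because 74.1% of its 50-base stretches occur in transcripts of other genes. In shDDX5 cells H2BC12 had the highest level, at 243 ± 34.1 CPM per kilobase, and its libraries (212 to 280) did not overlap those of the next gene, H2AZ1 (72.9 to 109). Behind it, H2AZ1 at 86.0 ± 19.8, H3-3B at 83.0 ± 17.1 and H3-3A at 69.7 ± 18.7 CPM per kilobase were within each other's spread. Then came H2AZ2 (18.9), H2AC6 (17.1) and H2AX (15.2), which overlapped each other, and H1-10 (4.89) and H2BC21 (4.34), which overlapped too. Without shDDX5 replicate 1 the level of H2BC12 was 225, that of H2AZ1 74.6, that of H3-3B 73.1 and that of H3-3A 58.9 CPM per kilobase, in the same order. In shControl cells H2AZ1 led at 159 ± 2.45 CPM per kilobase, H3-3A (68.0) and H3-3B (66.7) overlapped, and H2BC12 came next at 29.6 ± 2.56. H2AX (26.6) was just under it, followed by H2AZ2 (18.4), H1-10 (5.28), H2AC6 (2.90) and H2BC21 (0.719).

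In RX-5902 and DMSO cells the order of the 9 genes was the same. H2AZ1 led, at 175 ± 5.31 CPM per kilobase in RX-5902 and 203 ± 7.92 in DMSO cells. H3-3B (84.0 in RX-5902 and 75.5 in DMSO cells), H3-3A (61.9 and 64.1), H2AX (35.8 and 33.5) and H2AZ2 (24.9 and 25.1) followed. H2BC12 came after them, at 11.3 ± 1.83 CPM per kilobase in RX-5902 cells and 7.13 ± 0.932 in DMSO cells. The last places were those of H1-10 (4.26 in RX-5902 and 2.87 in DMSO cells), H2AC6 (4.15 and 0.967) and H2BC21 (0.853 and 0.242), where H1-10 and H2AC6 overlapped in RX-5902 cells and no other neighbours did. With the length of the longest coding transcript, a choice added after the data were seen, H2AX and H2AZ2 changed places in RX-5902, DMSO and shControl cells, as did H3-3A and H3-3B in shControl cells. H2BC12 stayed first in shDDX5 cells, at 316 CPM per kilobase.

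H2AZ1 and H2AZ2 code for nearly the same H2A.Z protein, and H3-3A and H3-3B for the same H3.3 protein. H2AZ1 made up 59.3 ± 3.3% of the reads of its pair in shDDX5 cells and 73.6 ± 1.2% in shControl cells. Its share was 69.5 ± 0.55% in RX-5902 cells and 72.4 ± 0.56% in DMSO cells (SD, n = 3 each). The RX-5902 libraries (69.1 to 70.1%) lay below the DMSO libraries (71.9 to 73%), with an exact two-sided permutation p of 0.1, the smallest that 3 against 3 libraries allow. H3-3A made up 34.2 ± 1.3% of the reads of its pair in shDDX5 cells and 38.9 ± 1.1% in shControl cells. In shDDX5 replicates 2 and 3 alone the shares were 56.9 and 57.9% for H2AZ1 and 33.1 and 33.8% for H3-3A. The share of H3-3A was 31.5 ± 0.26% in RX-5902 cells and 34.6 ± 1.3% in DMSO cells, again without overlap and with an exact permutation p of 0.1. The knockdown shares follow from the members' own knockdown values and were not tested.

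**Figure D4:**
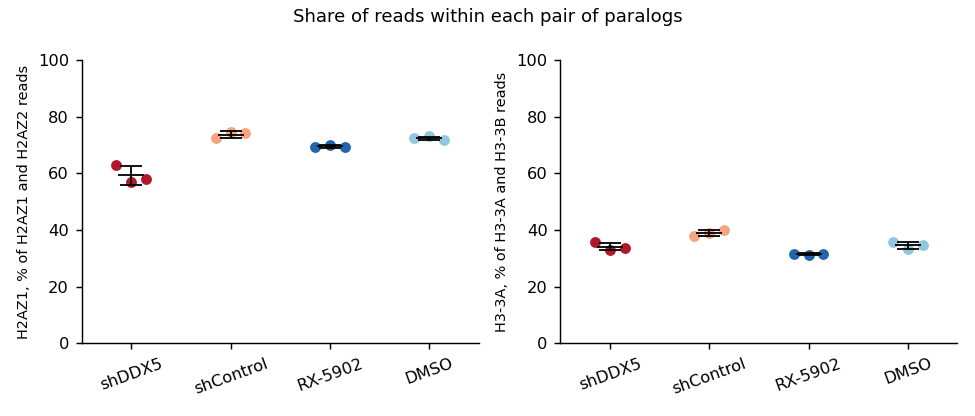
Share of reads, in percent, taken by H2AZ1 within the pair H2AZ1 and H2AZ2 (left) and by H3-3A within the pair H3-3A and H3-3B (right), with a point for each library and bars for the mean ± SD (n = 3). The H2AZ1 share is 56.9 to 63% in shDDX5 libraries and 69.1 to 74.4% in all others.

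The 3 replication-dependent members were set beside the other 67 listed genes of their class. Most of those 67 had few or no counts, and 8 passed the filter in the drug experiment and 9 in the knockdown. In RX-5902 cells 4 of the 8 (H4C8, H3C10, H2BC15 and H2BC4) passed only through the RX-5902 libraries, so neither a count nor a median over the 8 is given. Of the 4 that passed on DMSO libraries alone, 2 rose (H2BC5 and H1-2) and 0 fell by edgeR's test. Of all genes 32.2% were called higher and 31.9% lower, so 2 of 4 does not by itself set these genes apart. H4C8, a core H4 gene, rose by 1.93 (edgeR adjusted p = 1.67e-05), H2BC5 by 1.38 (edgeR adjusted p = 1.49e-05), the linker histone gene H1-2 by 1.1 (edgeR adjusted p = 7.18e-05), the H3 gene H3C10 by 1.49 and H2BC15 by 0.72. H2BC4, H2AC20 and H2AC25 were not called, at 0.46, 0.25 and 0.10. H2AC20, which starts 236 bases from H2BC21, had 0.981 ± 0.07 CPM in RX-5902 cells and 0.824 ± 0.29 CPM in DMSO cells. H2BC4, the neighbour of H2AC6, had 0.997 ± 0.202 CPM in RX-5902 cells and 0.723 ± 0.28 CPM in DMSO cells.

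In shDDX5 cells 2 of the 9 other replication-dependent histones (H2AC8 and H2BC11) passed only through the shDDX5 libraries. Of the 7 that passed on shControl libraries alone, 5 rose and 0 fell, where 28.4% of all genes were called higher and 28.3% lower. H2BC15 rose by 2.40 (edgeR adjusted p = 2.66e-05), H4C8 by 2.08 (edgeR adjusted p = 3.44e-05), H2BC4 by 1.96 (edgeR adjusted p = 2.8e-05), H2AC8 by 3.31, H2BC11 by 2.10, H2AC25 by 2.04 and H1-2 by 1.13. H2BC5 and H3C10, which rose with RX-5902, were not called, at 0.49 and 0.08. Without shDDX5 replicate 1, H2BC15 (2.28), H4C8 (1.98), H2BC4 (1.90), H2AC25 (1.72) and H1-2 (1.09) were again called higher, while H2BC5 stood at 0.36 and H3C10 at -0.30. H2AC8 stood at 3.00 and H2BC11 at 1.87 there. These 2 genes passed only through the shDDX5 libraries, where they are high, so their direction is no support. Summed over all 70 listed genes, replication-dependent histones held 185 to 236 CPM in shDDX5 libraries (the highest in replicate 1) and 38.2 to 39.9 CPM in shControl libraries, and 30.4 to 31.9 CPM in RX-5902 libraries and 13.3 to 14.9 CPM in DMSO libraries. H2AC6, H2BC12 and H2BC21 together made up 75.7 to 77.6% of that sum in shDDX5 libraries and 52.2 to 57.4% in shControl libraries. They made up 43.8 to 49.4% in RX-5902 libraries and 36.8 to 44.2% in DMSO libraries, where the groups overlap.

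Summed levels of the 12 listed replacement variants were 1753 to 2233 CPM in shDDX5 libraries, 1674 to 1709 CPM in shControl, 1721 to 1795 CPM in RX-5902 and 1719 to 1800 CPM in DMSO libraries. The highest shDDX5 sum was that of replicate 1, and the other shDDX5 libraries had 1753 and 1766 CPM. Of the 6 listed variants that are not among the 9 genes, 3 passed the filter in the knockdown and 2 in the drug experiment. CENPA, the centromeric H3, averaged 3.90 ± 1.2 CPM in shDDX5 cells and 17.8 ± 1.12 CPM in shControl cells, and fell by 2.19 on the log2 scale (edgeR adjusted p = 3.55e-05). In the drug experiment it averaged 30.2 ± 0.597 CPM in RX-5902 cells and 18.8 ± 1.2 CPM in DMSO cells, a rise of 0.69 (edgeR adjusted p = 3.63e-11). MACROH2A1, an H2A with a large macrodomain, rose by 0.75 in shDDX5 cells (edgeR adjusted p = 0.000112) and was not called in RX-5902 cells (-0.00). H3-5, which shares sequence with H3-3B and would not have passed the filter on shControl alone, rose by 1.32 in shDDX5 cells (edgeR adjusted p = 0.0147). Without shDDX5 replicate 1 CENPA stood at -2.47, MACROH2A1 at 0.72 and H3-5 at 1.26, each called in the same direction.

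**Figure D5:**
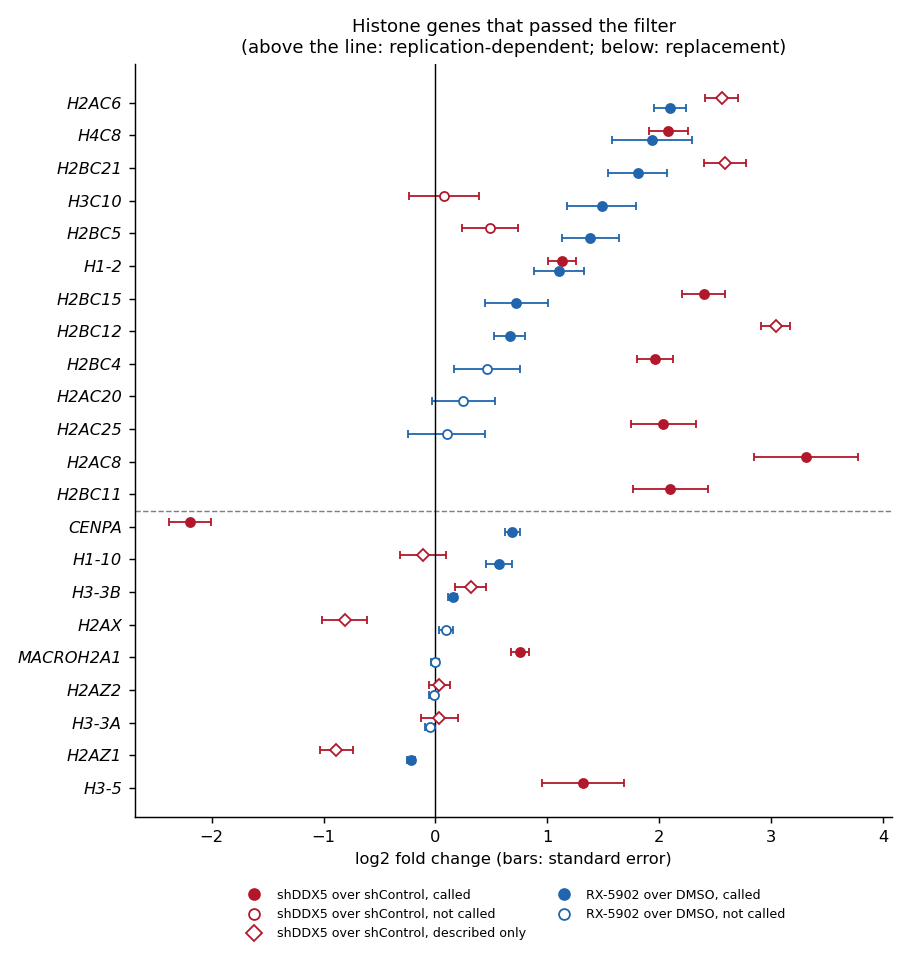
Log2 fold change of every listed histone gene that passed the filter (horizontal axis; bars are the standard error), for shDDX5 over shControl (red) and RX-5902 over DMSO (blue). Filled circles are called at an edgeR adjusted p under 0.05, open circles are not called, and diamonds are knockdown values of the 9 listed genes, given without a test. The plotted replication-dependent genes lie to the right of 0 in both experiments, although H3C10 stood at -0.30 in the knockdown without shDDX5 replicate 1. Several of them passed the filter only through the treated libraries, where they are high, so their side of 0 is no support. These are H2AC8 and H2BC11 in the knockdown, and H2BC21, H4C8, H3C10, H2BC15 and H2BC4 with RX-5902. CENPA lies at -2.19 in the knockdown and 0.69 with RX-5902.

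Genes that act on histone mRNA or on histones were counted by list with edgeR's test. Some lists share genes, so their counts are not independent. SYMPK and CSTF2 are on the pre-mRNA and the cleavage lists. MCM2 is on the replication chaperone and the S-phase lists, and ANP32E on the H2A-H2B chaperone and the H2A.Z lists. Beside these counts stand the shares of all genes called, 64.1% with RX-5902 (32.2% higher, 31.9% lower) and 56.7% in the knockdown (28.4% higher, 28.3% lower), and the lists were not tested against them. In RX-5902 cells 10 of 15 histone pre-mRNA factors fell and 1 rose (median log2 difference -0.25), among them SLBP, which binds the stem-loop (-0.54, edgeR adjusted p = 7.16e-12), and the cap-binding genes NCBP2 (-0.45) and NCBP1 (-0.35). In shDDX5 cells 11 of 15 fell and 0 rose (median -0.51), among them NPAT, an activator of histone genes (-1.08), SYMPK, a scaffold of the cleavage complex (-1.16), and SRRT (-0.80), and without shDDX5 replicate 1 13 fell (median -0.50). Of 20 cleavage and polyadenylation genes, 13 fell and 0 rose in RX-5902 cells (median -0.16), including CSTF3 (-0.78) and the poly(A) polymerase gene PAPOLA (-0.35). In shDDX5 cells 9 fell and 1 rose (median -0.21), including CPSF6 (-0.65) and CSTF2 (-0.67), and without shDDX5 replicate 1 13 fell and 3 rose. The share of this list that was called was 65% with RX-5902, all of it lower, where 31.9% of all genes were called lower. In the knockdown it was 50%, near the 56.7% of all genes, although mostly lower, where 28.3% of all genes were called lower.

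Histone chaperones of replication, which handle H3 and H4 while DNA is copied, fell in 8 and rose in 1 of 13 cases in RX-5902 cells (median -0.18), with MCM2 at -0.81 and NASP at -0.38. In shDDX5 cells 13 of 13 fell (median -1.62), with NASP at -2.31 and the CAF-1 gene CHAF1B at -1.62, and likewise 13 of 13 without shDDX5 replicate 1 (median -1.64). Chaperones of H3.3 and CENPA had 4 risen and 2 fallen of 10 in RX-5902 cells, with HJURP, the chaperone of CENPA, at 0.75 and ATRX, which places H3.3 at telomeres, at 0.39. In shDDX5 cells 7 of the 10 fell and 0 rose, with HJURP at -1.69, and 4 were called without shControl replicate 1. Without shDDX5 replicate 1 7 fell and 2 rose. With RX-5902 the share called, 60%, is near the 64.1% of all genes. Chaperones of H2A and H2B fell in 8 and rose in 1 of 9 cases in RX-5902 cells, with NCL at -0.96, and fell in 7 and rose in 0 of 9 in shDDX5 cells, with the FACT genes SUPT16H at -1.91 and SSRP1 at -1.57, and in 9 of 9 without shDDX5 replicate 1.

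The complexes that exchange H2A.Z had 4 risen and 7 fallen of 15 in RX-5902 cells (median 0.01), with the ATPases RUVBL1 (-1.06) and RUVBL2 (-0.58) lower and BRD8 (0.85) higher. The share called, 73.3%, is not far from the 64.1% of all genes. In shDDX5 cells 10 fell and 0 rose (median -0.47), with ANP32E, which removes H2A.Z from nucleosomes, at -1.31, and without shDDX5 replicate 1 11 fell and 1 rose. Genes of S-phase DNA synthesis fell in 12 of 18 cases in RX-5902 cells, with 0 risen (median -0.19), among them GINS2 (-1.12) and MCM6 (-0.63). In shDDX5 cells 18 of 18 fell (median -1.97), among them RRM1 (-2.28) and MCM6 (-2.15), and 18 of 18 without shDDX5 replicate 1 (median -1.90), while the 3 replication-dependent members were higher in the same libraries. With RX-5902 66.7% of the list was called, all of it lower, where 31.9% of all genes were called lower. The part of these changes in the histone results was not tested.

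Summed fibroblast markers held 3.86 to 6.57 CPM in shDDX5 libraries and 0.986 to 1.19 CPM in shControl libraries, mostly from COL1A1, with 3 of the 6 (COL3A1, DCN and LUM) at 0 in all 12 libraries. In the drug experiment they held 0.815 to 1.07 CPM in RX-5902 libraries and 0.253 to 0.552 CPM in DMSO libraries, with COL1A1, which passed the filter only through the RX-5902 libraries, called higher (log2 1.93, edgeR adjusted p = 0.000321). B cell markers held 2.23 to 2.49 CPM in RX-5902 libraries and 1.71 to 1.82 CPM in DMSO libraries, with MS4A1 at 0 in all libraries, and in the knockdown 1.36 to 2.19 CPM in shDDX5 and 1.48 to 2.49 CPM in shControl libraries. Erythroid markers did not exceed 0.197 CPM in any library. Summed epithelial and packaging cell markers held 18.04 to 20.5 CPM in RX-5902 libraries and 4.21 to 4.90 CPM in DMSO libraries, mainly from L1CAM, while EPCAM and CDH1 did not exceed 1 count. Summed myeloid genes held 13590 to 15000 CPM in shDDX5 libraries and 4262 to 4591 CPM in shControl libraries, mostly from LYZ, and 1200 to 1220 CPM in RX-5902 libraries and 1392 to 1450 CPM in DMSO libraries. The lower sum with RX-5902 does not hold for each gene. Of 9 myeloid genes tested there, 3 were called higher and 5 lower, where 32.2% and 31.9% of all genes were. T cell markers summed to 0.568 to 0.849 CPM in shDDX5 libraries and 1.64 to 2.07 CPM in shControl libraries, and megakaryocyte markers, mainly GP1BA, to 0.966 to 1.02 CPM in shDDX5 libraries and 4.28 to 5.62 CPM in shControl libraries. Their part in the histone results was not tested.

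For likeness of pattern, log2 CPM was centred within each experiment and compared over the 12 libraries among 8872 genes outside the histone lists. The mean of H2AC6, H2BC12 and H2BC21 was followed most closely by TRAF3IP2, an adaptor of interleukin-17 signalling (Pearson r = 0.998), GSN, the actin-severing protein gelsolin (0.996), and LILRB4, an inhibitory receptor of myeloid cells (0.994). TRAF3IP2 stood at 62 to 71.4 CPM in shDDX5, 35.9 to 36.3 in shControl, 33.9 to 35.1 in RX-5902 and 25.6 to 27.6 CPM in DMSO libraries. The mean of H2AZ1 and H2AZ2 was followed most closely by GLRX3, a glutaredoxin (0.984), HMGN2, a nucleosome-binding protein (0.979), and CHEK2, a checkpoint kinase (0.978). H2AZ1 and H2AZ2 themselves had a Pearson r of 0.138 with each other on this scale, so their mean is not a pattern that both share. HMGN2 stood at 233 to 317 CPM in shDDX5, 398 to 413 in shControl, 630 to 660 in RX-5902 and 716 to 728 CPM in DMSO libraries. These values describe 4 groups of 3 libraries more than 12 independent points, and they were picked as the highest of many genes.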

How the data were processed

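RNA-seq counts of MOLM-14 cells were analysed in 12 libraries, 3 per group, which the labels call biological replicates; whether they came from separate cultures is not stated, so p-values measure the spread between these libraries. The deposited values are read counts per gene as counted by the authors, without normalization, in a table for each experiment. Per the submitters' processing notes, the tools included featureCounts (Subread 2.0.3), Trim Galore 0.6.7 and STAR 2.7.9a, with the build GRCh38.p13. Annotation release, strand setting, RNA selection and the handling of multi-mapping reads are not given in the sources used here. The line of 1 gene, wrapped in each table, was rejoined. Symbols were matched for 59984 of the 61906 identifiers with their version and for 1819 without it.

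The 2 experiments were fitted separately in edgeR 4.0.16 (R 4.3.3), using filterByExpr, TMM scaling and the two-sided quasi-likelihood F test, adjusted over all genes tested and called under 0.05. The code was tested on simulated data. CPM use TMM-scaled library sizes, and standard errors were derived from the F statistic. The 9 genes and the gene lists were chosen with earlier results of these data known. Genes named are DDX5, the 9 genes, other listed histones that passed the filter, up to 3 called genes with the smallest p from each other list, and the 3 genes outside the histone lists (mean of at least 10 CPM) most like each of 2 member means. Markers were also named, except for a marker gene whose values are not reported here. Alternatives were DESeq2 1.42.0, other scalings and filters, a fit of all 12 libraries, a replicate block and leaving out each library. Totals ranged from 17603589 to 20367575 counts per library.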

Additional observations from a re-analysis of the deposited data

How the results depend on the processing

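Directions and calls held in most settings. For the 9 genes with RX-5902, 109 of the recomputed values kept their direction and their side of the threshold. Scaling by library totals alone, which moved the median of all genes by 0.06 in the drug experiment and by -0.09 in the knockdown, turned H2AZ2 to 0.047 (edgeR adjusted p = 0.291) and H3-3A to 0.012 (0.806), and called H2AX at 0.15 (0.0273). One fit of all 12 libraries turned H2AZ2 to 0.023 (0.831) and left 0 of the 9 genes called lower, in place of 1, with H2AZ1 at -0.18. In that fit the calls with RX-5902 were also fewer, at 7 against 11 for histone pre-mRNA factors, 7 against 13 for cleavage and polyadenylation, 2 against 6 for H3.3 and CENPA chaperones and 6 against 11 for H2A.Z exchange. Among the 67 other replication-dependent histones, the number called higher moved with the filter. More were called in both experiments with no expression filter, and fewer with RX-5902 with group means of at least 10 counts. Some of these genes passed a filter only through the treated libraries, where they are high, so the numbers are no support and are not given. Among the 6 other replacement variants, 2 were called with RX-5902 with no filter and also in the fit of all 12 libraries, in place of 1. Leaving out each library, cleavage and polyadenylation genes called in the knockdown reached 16 in place of 10, without shDDX5 replicate 1. In the knockdown, H1-10 stood at 0.03 and 0.00 without shDDX5 replicate 2 or 3. The causes were not tested.

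No effect of pairing by replicate number was seen. Deviations of same-numbered libraries correlated between -0.0998 and 0.0462 in the knockdown and between -0.0761 and 0.0163 in the drug experiment. Whether same-numbered libraries were handled together is not given in the labels, and these values cannot settle it. With the replicate number as a block, 3754 genes were called higher and 3838 lower in the knockdown, and 4376 and 4320 in the drug experiment. The block changed no call of the 9 genes with RX-5902. Depth limits the genes with few counts, such as H2BC21 in DMSO libraries, and most replication-dependent histones.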
